A study of Mus musculus with 12 samples.

Results

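The proteasome subunit mRNAs were taken as the protein-coding genes whose symbol starts with Psma, Psmb, Psmc, Psmd, Psme, Psmf or Psmg followed by a digit, with pseudogenes left out. The annotation held 51 such genes, and 50 of them were among the 27179 gene IDs of the count tables. Psme2b was the other one and was not analysed here, and 0 of 6 annotated pseudogenes with these prefixes were in the tables. Of the 50, 48 encode proteasome subunits, their activators and inhibitor, or assembly chaperones. The prefix also took Psmc3ip, a factor of meiotic recombination, and Psme3ip1, a partner of the activator Psme3, and these 2 were counted apart by role.

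RNA was measured in polysome gradients of livers from 6 male C57BL/6 mice, each with a heavy and a light library (12 in all), to compare mRNA under high and low translation. The S209A animal (1) carried the eIF4E S209A/S209A genotype and ate chow, the keto animals (2) were wild type and ate a ketogenic diet for 24 h, and the chow animals (3) were wild type and ate chow. The labels give 24 h of chow for the diet study, to which the titles tie chow 1 and 2, and no duration for S209A and chow 3, which are titled fed. eIF4E binds the mRNA cap, and the replaced serine is the site phosphorylated by the MNK kinases. Animals were the replicates, so S209A had no replicate. Fractions 2 to 7 and 8 to 13 of each gradient were pooled, and the labels do not say which pool is heavy. Hepatocyte markers were all tested (6 of 6) and summed to 3636 to 11691 CPM (counts scaled to library size) in every library.

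The proteasome degrades proteins tagged with ubiquitin. Its 20S core is a barrel of outer alpha rings and inner beta rings, in which Psmb5, Psmb6 and Psmb7 cut proteins, and its 19S particle recognises, unfolds and deubiquitinates the substrate with a ring of Psmc ATPases, other base subunits and a lid. In cells exposed to interferon, Psmb8, Psmb9 and Psmb10 take the place of the catalytic subunits, and Psme1 with Psme2 forms an alternative cap. When proteasome activity falls, the transcription factor Nfe2l1 raises subunit transcription as a group through antioxidant response elements.

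The promoter stretches below show matches to the core sequence of such an element before the start sites used for Psmb5 and Psmb6. They were chosen since the members share a described transcriptional control, and whether the matches act as such elements was not tested. Each stretch runs from 80 bases to 1 base before the start site used in the RefSeq promoter table, in build GRCm38.p6, 5′ to 3′ on the gene's strand. Capitals mark a match to the element core TGACNNNGC. The annotated span of Psmb6 begins earlier, at 70525324, so the last 33 bases of its stretch, with the match, lie inside that span.
Psmb5 (chr14:54617996-54618075, minus strand): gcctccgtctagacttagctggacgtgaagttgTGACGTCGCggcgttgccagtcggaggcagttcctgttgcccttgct
Psmb6 (chr11:70525277-70525356, plus strand): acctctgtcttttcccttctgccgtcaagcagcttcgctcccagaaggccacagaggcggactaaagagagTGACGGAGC
Psmd4 (chr3:95042615-95042694, minus strand): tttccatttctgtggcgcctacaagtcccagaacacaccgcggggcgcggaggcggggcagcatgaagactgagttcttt
Psmb5 encodes the subunit with chymotrypsin-like activity and Psmb6 the one with caspase-like activity. Psmd4, the ubiquitin receptor with the most counts among the members, had no match in its stretch. The RefSeq table held 46 promoter windows for 42 members. Over the 250 bases before the start, on both strands, 5 of these windows (10.9%) held TGACNNNGC (Psmb5, Psmb6, Psmc6, Psmd12 and Psmd9), against 10.2% of all 32851 windows. CCAAT, the box bound by NF-Y, was in 16 of the 46 (34.8%), against 33.8% of all windows, and it was in none of the stretches shown. Both shares were near those of all promoters. A match is a description and not a binding site. The 8 members with no window were Psmb1, Psmb2, Psmb7, Psmd3, Psmd7, Psma8, Psmc3 and Psmg2.

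The members held 41914 counts in all, and 1013 (keto 2 light) to 7714 (chow 3 heavy) in a library. Library totals ran from 3341046 to 13263355 counts, of which nuclear protein-coding genes held 356544 to 1776829. The most counted member was Psmd4 (ID 19185, chromosome 3, 95032688 to 95042614), with 9.53% of the members' counts. By role, the base subunits other than ATPases held 20.2% of the members' counts, the lid 19.9%, the ATPases 17.0%, the constitutive beta subunits 16.8% and the alpha subunits 10.6%. Gene length was not available, so these shares compare counts and not mRNA molecules. A filter of edgeR at a minimum of 10 counts kept 47 of the 50 members among 10555 genes. The members left out were Psmb11, the thymus-specific beta subunit (0 counts in 12 libraries, which allows up to 3 counts), Psma8, the testis-specific alpha subunit (10 counts), and Psmc3ip (9 counts).

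**Figure D1:**
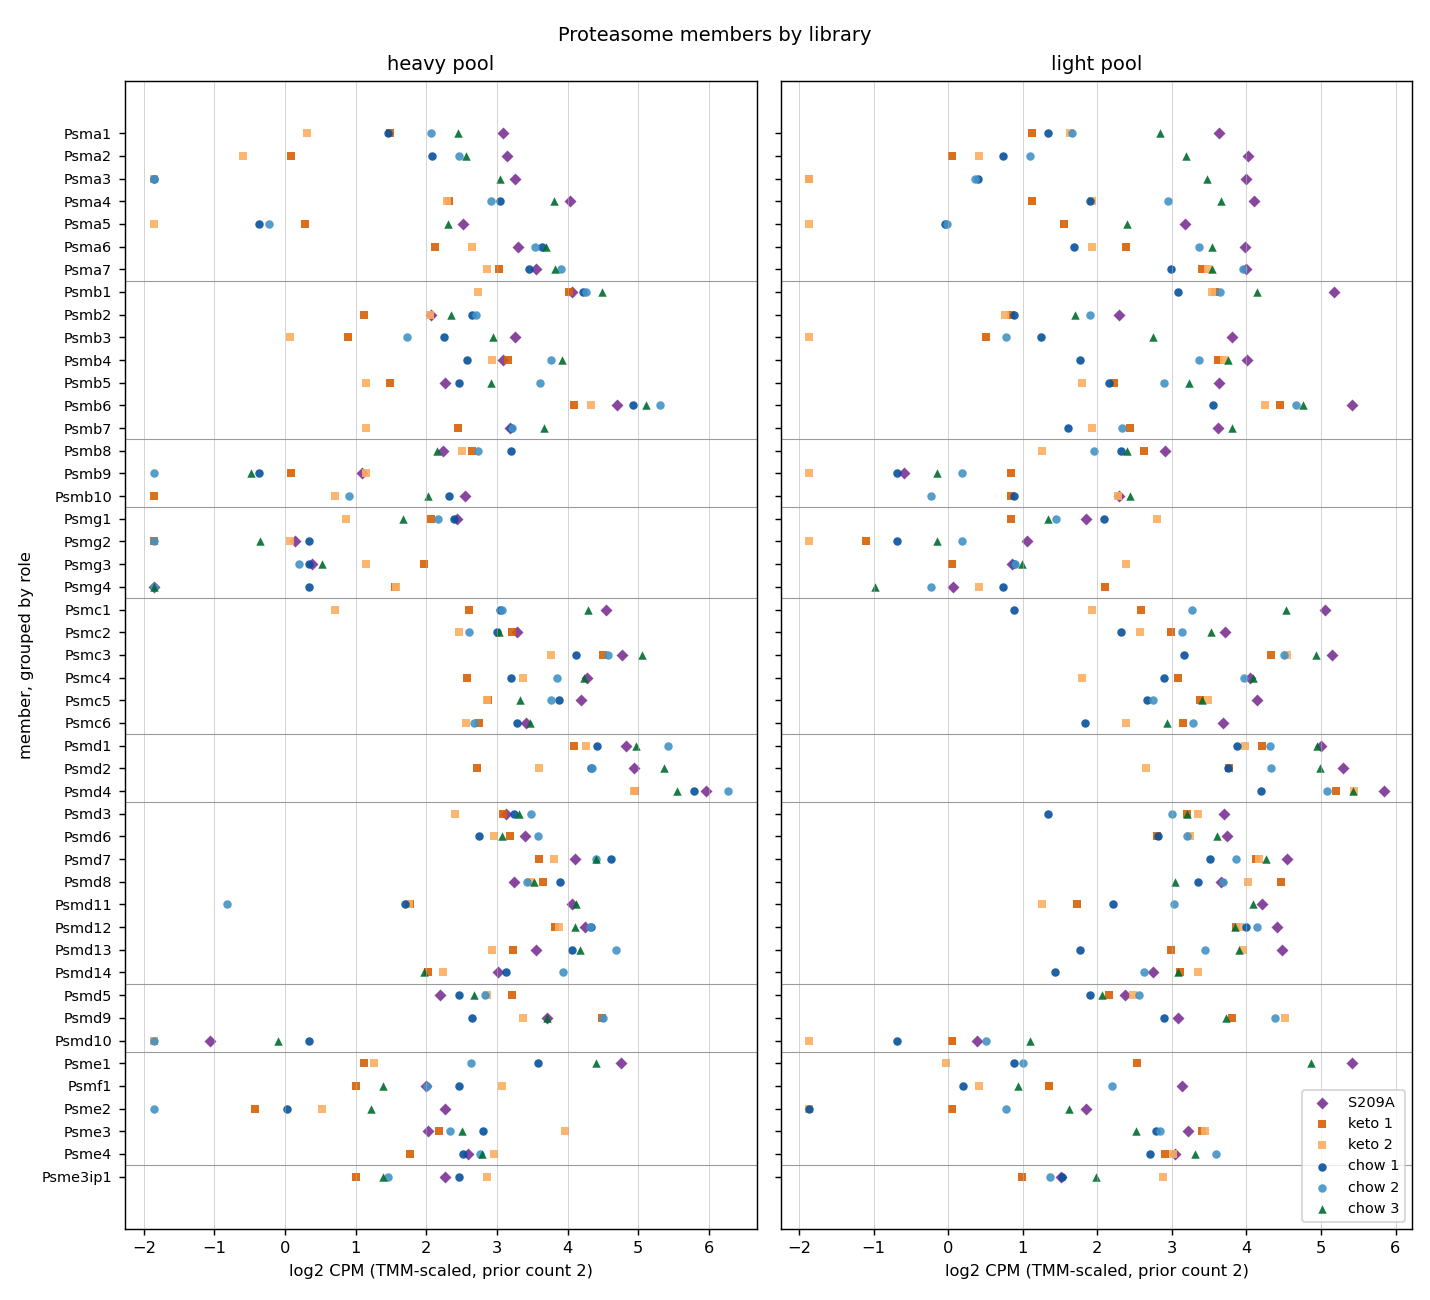
Level of the 47 tested members (rows, grouped by role with grey lines between roles) in the heavy pool (left) and the light pool (right), as log2 CPM with a prior count of 2. Each marker is 1 library; for Psma3, Psmd11 and Psme1 the S209A and chow 3 markers lie right of the others in both panels.

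Some libraries stood apart. The titles of the S209A animal and chow 3 call them fed, while those of the other 4 animals say keto or chow, and the file headers name HISAT2 for S209A and chow 3, Bowtie2 for chow 1 and chow 2, and no aligner for keto. As a percent of protein-coding counts, the members held 0.402 and 0.447 in S209A heavy and light and 0.434 and 0.435 in chow 3. The keto libraries ran from 0.271 to 0.296 and those of chow 1 and 2 from 0.225 to 0.323. The 4 libraries titled fed therefore lay above the other 8 without overlap. The same 4 also stood apart in composition, with 29.6 to 39.2% of their counts in nuclear protein-coding genes, against 4.09 to 22.2% in the other 8, and TMM factors of 2.13 to 3.12, against 0.324 to 1.33. The part of these in the members' levels was not tested.

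Single members split along the same line. Psma3 (ID 19167, chromosome 12, 70969283 to 70995877), an alpha ring subunit, had 90 and 122 counts in S209A heavy and light and 109 and 139 in chow 3. It had 0 counts in all 4 keto libraries, 0 in chow 1 and chow 2 heavy, and 6 and 7 in their light libraries. Psme1 (ID 19186, chromosome 14, 55578494 to 55581527), of the interferon-inducible cap, had 261 and 329 counts in S209A and 286 and 369 in chow 3, against 2 to 47 in the other 8 libraries. In CPM, 13 of 47 members (27.7%) were higher without overlap in the libraries titled fed, against 3.33% of all genes tested, and 0 were lower, against 2.75%. They were Psma1, Psma2, Psma3, Psma4, Psma5, Psmb3, Psmc1, Psmc3, Psmc4, Psmd2, Psmd11, Psme1 and Psme2. The mean CPM of 15 members (31.9%) was more than 2 times as high in the libraries titled fed, against 9.46% of all genes, and the median ratio was 1.45 for the members and 0.955 for all genes. Members at the other end were the 20S assembly chaperone Psmg4, with a median of 0.117 CPM (0 to 0.771) in the libraries titled fed and 1.23 CPM (0 to 4.003) in the others, and the lid subunit Psmd8, with 10.2 CPM (7.95 to 12.3) and 12.5 CPM (9.92 to 21.7). Of the members counted above as higher, Psma3, Psma5, Psme2, Psmd10 and Psmg2 had at most 7, 14, 10, 8 and 6 counts in the other 8 libraries. They passed the count filter only or mainly through the libraries titled fed, where they are high. Their place in these counts is therefore no separate evidence, and the same filter was used for all genes. Chow 3 shares genotype and chow with chow 1 and 2 but differs from them in both title and named aligner. The parts of title and aligner therefore cannot be told apart. Genotype and diet are not fully crossed with title and aligner. Diet and header cannot be told apart. S209A and chow 3 share title and aligner but are 1 animal each, so genotype and animal cannot be told apart. Keto and chow 3 differ in title, and the keto headers name no aligner.

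**Figure D2:**
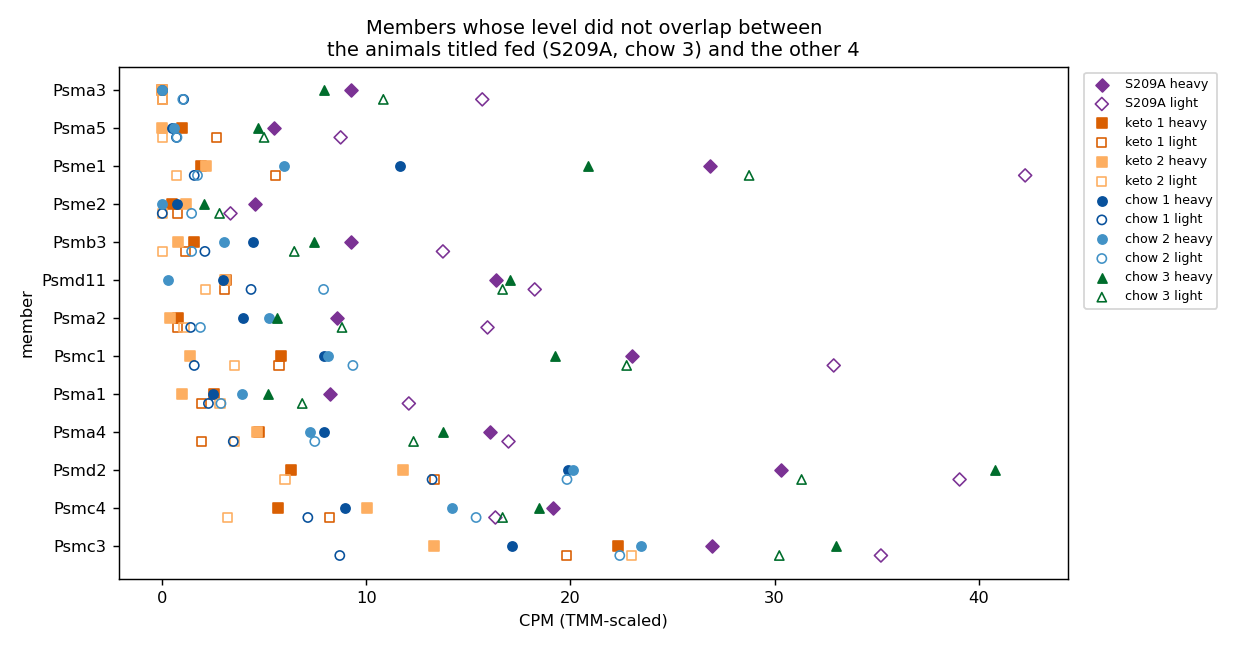
CPM (x axis) of the 13 members whose libraries titled fed (S209A, diamonds; chow 3, triangles) lay above all others without overlap; filled markers are heavy and open markers light libraries, and squares and circles are keto and chow 1 and 2. Psma3 lay between 7.95 and 15.7 CPM in the libraries titled fed and at 0 to 1.04 in the rest.

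In the chow livers most TMM-scaled subunit mRNAs of the core beta rings and the 19S particle were higher in heavy than in light. None of these differences passed the test. Of protein-coding counts, the members held 0.290, 0.322 and 0.434% in the heavy libraries of chow 1, 2 and 3. They held 0.225, 0.323 and 0.435% in the light libraries, so heavy exceeded light in chow 1 and not in chow 2 or 3. The part of library composition in the differences was not tested. The fitted log2 heavy over light was positive for 33 of 47 members, with a median of 0.40 against -0.09 over all genes tested. All 7 constitutive beta subunits were positive (median 0.74), as were 3 of 3 base subunits other than ATPases (0.56), 6 of 8 lid subunits (0.43), 5 of 6 ATPases (0.40) and 5 of 7 alpha subunits (0.24). The 20S assembly chaperones had 1 of 4 positive (-0.67) and the activators with the inhibitor 2 of 5 (-0.17). The 20S assembly chaperones averaged only 4.5 to 24.5 counts a library, so their median rests on low counts, and the difference between roles was not tested. edgeR's quasi-likelihood test called 0 of 47 members at an adjusted p of 0.05, against 0.227% of all genes. At an unadjusted p under 0.05 there were 4 higher and 2 lower members (8.51% and 4.26%), against 3.94% and 3.02% of all genes. DESeq2 called 1 member, Psmd4 (adjusted p = 0.0465), against 0.843% of all genes called higher, and limma-voom 0. Psmd4 was the only member to which DESeq2 gave an adjusted p. The 0.843% is a share of all genes, with or without an adjusted p from DESeq2.

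Psmd4 had 55.1, 77.0 and 46.5 CPM in the heavy libraries of chow 1, 2 and 3, against 18.1, 33.5 and 42.9 CPM in their light libraries. All heavy libraries lay above all light ones, with the least distance in chow 3. The log2 difference was 0.97 ± 0.37 (SE, n = 3 animals, edgeR adjusted p = 0.388). Psmd13, a lid subunit, had 16.4, 25.4 and 17.8 CPM in heavy against 3.13, 10.6 and 14.7 CPM in light, which do not overlap either (1.24 ± 0.44, edgeR adjusted p = 0.312). Psme1 had 11.7, 5.94 and 20.8 CPM in heavy against 1.57, 1.72 and 28.8 CPM in light. It was higher in heavy in chow 1 and 2 and lower in chow 3 (1.22 ± 0.48, edgeR adjusted p = 0.420). Psmd11, a lid subunit, had 2.98, 0.290 and 17.1 CPM in heavy against 4.35, 7.90 and 16.7 CPM in light. Its value of -1.23 ± 0.55 (edgeR adjusted p = 0.579) came mainly from chow 2, where heavy held 2 counts and light 55.

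The heavy excess was positive in every chow animal for 16 of 47 members (34.04%), against 12.2% of all genes, and negative in every one for 5 (10.6%), against 16%. The 5 were Psma3, Psma5, Psme4, Psmg3 and Psmg4. Chow 3 differed from the other 2. Without it edgeR called Psme1 at 2.29 (adjusted p = 0.00820), Psmd4 at 1.37 (adjusted p = 0.00744) and Psmd13 at 1.73 (adjusted p = 0.0206), against 2.73% of all genes called higher. Without both animals titled fed it called Psmd4 and Psmd13, against 2.72% of all genes. Without chow 1 the members' median fell to 0.13, against 0.40 with it. Hepatocyte marker sums were also higher in heavy in each chow animal, at 7904, 11691 and 7177 CPM in heavy against 3636, 7545 and 6216 CPM in light for chow 1, 2 and 3, with 5 of 6 markers positive (median 0.73). Sums of 8 untranslated RNA markers, such as nuclear noncoding RNAs, were 1515, 2305 and 2668 CPM in heavy against 7352, 4989 and 1734 CPM in light. They were lower in heavy in chow 1 and 2 and higher in heavy in chow 3. The part of either list in the result was not tested.

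Per animal, the median log2 heavy over light of the 47 members was -0.43 in S209A, -0.25 and -0.03 in keto 1 and 2, and 0.93, 0.16 and -0.02 in chow 1, 2 and 3. The median of all genes lay between -0.08 and 0.02 in each. Positive members numbered 10 in S209A, 19 in each keto animal, and 39, 28 and 23 in the chow animals. The chow animals were spread over both sides of 0, with chow 3 beside keto 2.

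**Figure D3:**
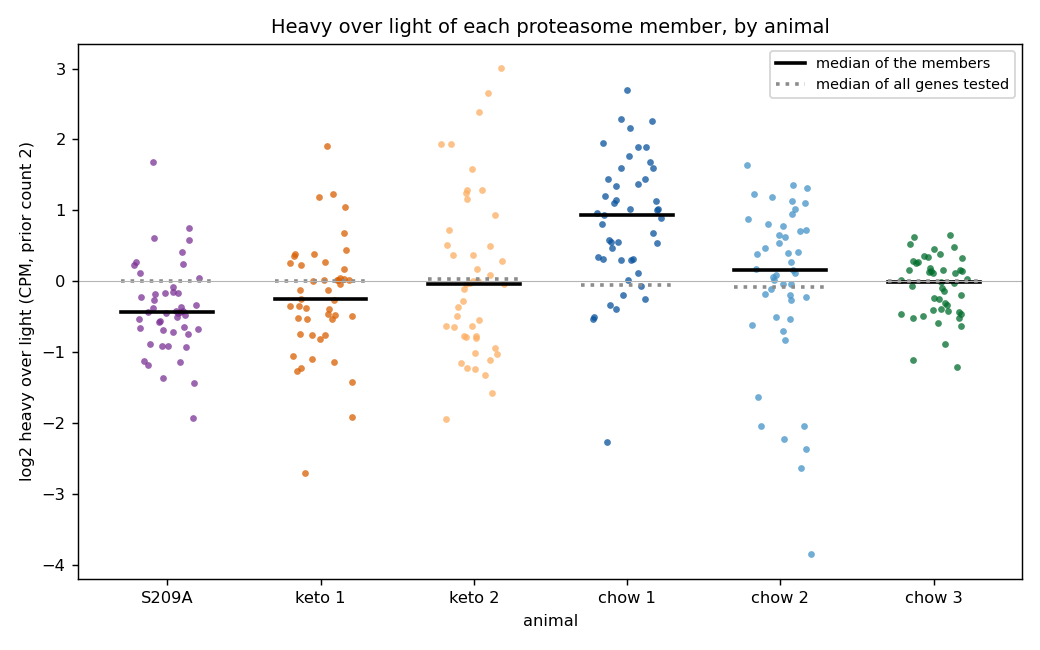
Log2 heavy over light (CPM with a prior count of 2) of each tested member in each animal; 1 dot is 1 member, the black line the median of the 47 members and the dotted line the median of all genes tested. The members' median was 0.93 in chow 1 and between -0.43 and 0.16 in the other 5 animals.

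In the keto livers the members' median heavy over light was -0.15, against 0.03 over all genes, with 18 of 47 positive. edgeR called 0 members, against 0.18% of all genes, with 1 (2.13%) lower at an unadjusted p under 0.05, against 1.96% of all genes, and DESeq2 and limma-voom called 0. Psmb10, the immunoproteasome subunit with trypsin-like activity, had 0 and 1.35 CPM in the heavy libraries of keto 1 and 2 and 1.53 and 4.60 CPM in their light libraries. Heavy lay below light in both, with 0 and 7 counts in the heavy libraries against 8 and 13 in the light ones (-2.67 ± 1.17, edgeR adjusted p = 1). Psmd14, the lid's deubiquitinase, had 3.77 and 4.44 CPM in heavy and 8.39 and 9.90 CPM in light, without overlap (-1.15 ± 0.65, edgeR adjusted p = 1). Psmd8 of the lid stood at -0.69 ± 0.53 and Psma4 of the alpha ring at 0.85 ± 0.67 (edgeR adjusted p = 1 for each). In both keto animals 12 members (25.5%) were negative, against 23.2% of all genes, and 6 (12.8%) were positive, against 25.9%. Hepatocyte marker sums were 4542 and 5215 CPM in keto 1 and 2 heavy against 5291 and 5517 CPM in light. Of these markers 5 of 6 were negative (median -0.19). Untranslated RNA marker sums were 13091 and 11059 CPM in heavy against 7366 and 10999.5 CPM in light. Of those tested 5 of 7 were positive (median 0.95). The part of either list in the members' values was not tested.

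The difference between the diets in heavy over light, keto minus chow, had a median of -0.49 over the members and 0.15 over all genes, with 32 of 47 members negative. By role, 6 of 7 constitutive beta subunits were negative (median -0.93), 6 of 8 lid subunits (-1.004) and 3 of 3 base subunits other than ATPases (-0.48). edgeR called 0 members, against 0.189% of all genes, with 5 (10.6%) lower at an unadjusted p under 0.05, against 3.11% of all genes, and DESeq2 and limma-voom called 0. Psmb10 stood at -3.42 ± 1.43 (edgeR adjusted p = 0.691), Psmd13 at -1.62 ± 0.70 (edgeR adjusted p = 0.712), Psmd4 at -1.34 ± 0.58 (edgeR adjusted p = 0.721) and Psmd14 at -1.79 ± 0.85 (edgeR adjusted p = 0.804). For 5 members (10.6%) every keto animal was negative and every chow animal positive or the reverse, against 7.3% of all genes: Psmb4, Psmd3, Psmd4, Psmd7 and Psmd12. Without chow 3 Psmd4 was called at -1.73 (edgeR adjusted p = 0.0315), against 1.48% of all genes called lower, and without both animals titled fed it was called at -1.74 (edgeR adjusted p = 0.0305), against 1.52% of all genes. The members' median was -0.26 without keto 1 and -0.29 without chow 1. In the same comparison hepatocyte markers were negative in 5 of 6 (median -0.70), and untranslated RNA markers were positive in 7 of 7 tested (median 1.65), of which edgeR called 1. Their part in the members' difference was not tested.

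Over all 6 animals the members' heavy over light was near 0, at a median of 0.08, and turned to -0.12 without chow 1. edgeR called 0 members, against 0.0284% of all genes, with 0 at an unadjusted p under 0.05, against 1.89% of all genes higher and 1.52% lower, and DESeq2 and limma-voom called 0. The smallest unadjusted p belonged to Psma3 (-1.33 ± 0.66), Psmb2, a noncatalytic beta subunit (0.79 ± 0.47), Psme4, a large single-chain activator (-0.55 ± 0.33), and Psmd10, also known as gankyrin (-2.00 ± 1.43), with an edgeR adjusted p of 0.998 for each. Psme4 had 5.76, 3.14, 7.53, 5.46, 6.52 and 6.63 CPM in the heavy libraries of S209A, keto 1, keto 2, chow 1, chow 2 and chow 3, against 7.97, 7.24, 7.78, 6.26, 11.8 and 9.66 CPM in their light libraries. It was the 1 member (2.13%) lower in heavy in all 6 animals, against 1.49% of all genes, and 0 members were higher in all 6, against 1.53%.

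In the heavy pool the TMM-scaled core and 19S subunit mRNAs lay lower as a group in the keto than in the chow livers. No single member passed the test. Of protein-coding counts, the members held 0.271 and 0.287% in keto 1 and 2 heavy. They held 0.290, 0.322 and 0.434% in chow 1, 2 and 3 heavy, so keto 2 was close to chow 1. The part of library composition in the difference was not tested. The fitted log2 keto over chow was negative for 39 of 47 members, with a median of -0.82 against -0.04 over all genes. It was negative for 7 of 7 tested alpha subunits (median -1.26), 7 of 7 constitutive beta subunits (-0.98), 6 of 6 ATPases (-0.68), 3 of 3 other base subunits (-0.96) and 8 of 8 lid subunits (-0.69). The 20S assembly chaperones had 2 of 4 negative (median 0.55), the 19S assembly chaperones 1 of 3 (0.23) and the activators with the inhibitor 3 of 5 (-0.23). Here too the median of the 20S assembly chaperones rests on low counts, with means of 4.5 to 24.5 a library. edgeR called 0 of 47, against 0% of all genes, with 10 (21.3%) lower and 0 higher at an unadjusted p under 0.05, against 5.16% and 3.01% of all genes. DESeq2 called 1 member, Psme1, against 0.787% of all genes called lower, and limma-voom 0. With no filter on low counts edgeR called Psme1 and Psma3 lower, against 0.494% of all genes, where Psma3 rests on chow 3 alone among the chow animals. In bulk tissue, fewer cells of a type and less RNA per cell cannot be told apart.

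Psme1 had 1.89 and 2.12 CPM in keto 1 and 2, against 11.7, 5.94 and 20.8 CPM in chow 1, 2 and 3, without overlap (-2.68 ± 0.68, edgeR adjusted p = 0.462, DESeq2 adjusted p = 0.0227). Psma2 of the alpha ring had 0.786 and 0.386 CPM in keto, from 5 and 2 counts, against 3.97, 5.22 and 5.61 CPM in chow (-3.02 ± 0.84, edgeR adjusted p = 0.476). Both keto values lay far below the narrow range of the chow animals. Psmd2, a large scaffold subunit of the base, had 6.29 and 11.8 CPM in keto, against 19.9, 20.1 and 40.8 CPM in chow (-1.58 ± 0.56, edgeR adjusted p = 0.512). Psmb5 had 2.52 and 1.93 CPM in keto, against 5.21, 11.9 and 7.29 CPM in chow (-1.86 ± 0.70, edgeR adjusted p = 0.527). These 2 also did not overlap between the diets. Psmd4 had 30.7 and 30.5 CPM in keto, against 55.1, 77.0 and 46.5 CPM in chow, and Psmb6 had 16.8 and 19.9 CPM in keto, against 30.04, 39.4 and 34.3 CPM in chow.

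In all, 21 of 47 members (44.7%) were lower in both keto heavy libraries than in every chow heavy library, against 13.4% of all genes, and 4 (8.51%) were higher, against 14.5%. The 4 were Psmb9, Psmd5, Psmg3 and Psmg4. Of these, Psmb9, Psmg3 and Psmg4 rest on low counts. Psmb9 had 5 and 10 counts in keto 1 and 2 heavy, against 2, 0 and 6 in chow 1, 2 and 3 heavy. Psmg3 had 23 and 10 against 4, 6 and 16, and Psmg4 had 17 and 14 against 4, 0 and 0. Set against chow 1 and 2 alone, 24 members (51.1%) were lower, against 20.4% of all genes. The members' median was -0.60 with the title wording as a batch, -0.57 without chow 3 and -0.62 without both animals titled fed. Hepatocyte marker sums moved the same way, at 4542 and 5215 CPM in keto and 7904, 11691 and 7177 CPM in chow, with 5 of 6 markers negative (median -0.95). Untranslated RNA marker sums moved the other way, at 13091 and 11059 CPM in keto and 1515, 2305 and 2668 CPM in chow. The part of either in the members' difference was not tested, and since no chow library shares the keto headers, diet and processing cannot be told apart.

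In the light pool the members' median log2 keto over chow was -0.15, against -0.13 over all genes, with 19 of 47 positive. It was not stable, at -0.48 without keto 1 (-0.35 over all genes), -0.30 without keto 2, -0.38 without chow 1, -0.23 without chow 2, 0.05 without chow 3 and 0.05 with the title wording as a batch. The alpha subunits were negative in 7 of 7 (median -0.92) and the constitutive beta subunits in 6 of 7 (-0.71), while 5 of 8 lid subunits were positive (0.23). edgeR called 0 members, against 0% of all genes, with 5 (10.6%) lower at an unadjusted p under 0.05, against 3.73% of all genes, and DESeq2 and limma-voom called 0. Lower without overlap were 6 members (12.8%), against 14.6% of all genes, and 3 (6.38%) were higher, against 11.2%. Against chow 1 and 2 alone, 7 (14.9%) were lower and 8 (17.02%) higher, against 20.7% and 16.2% of all genes.

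Psma3 had 0 counts in both keto light libraries, against 6, 7 and 139 counts in chow 1, 2 and 3. With a floor of 3 counts per keto library its mean was at least 5.26-fold lower in keto, a bound set almost wholly by chow 3 (edgeR adjusted p = 0.796). With no filter on low counts edgeR called it (adjusted p = 0.000672), against 0.175% of all genes called lower. Psmd11 had 3.05 and 2.12 CPM in keto, against 4.35, 7.90 and 16.7 CPM in chow (-1.88 ± 0.68, edgeR adjusted p = 0.796). Psma4 had 1.91 and 3.53 CPM in keto, against 3.48, 7.47 and 12.3 CPM in chow, with keto 2 just inside the chow range (-1.57 ± 0.68, edgeR adjusted p = 0.796). Psma2 had 0.763 and 1.06 CPM in keto, against 1.39, 1.87 and 8.81 CPM in chow (-2.20 ± 0.96, edgeR adjusted p = 0.796). In each of these members the highest chow value belonged to chow 3.

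The single S209A animal had no replicate and was given no test, and its values were set beside the 3 chow animals and beside chow 3, which shares its title wording and aligner. In the heavy pool the members' median log2 difference from the chow mean was 0.09, against 0.10 over all genes. A difference above 1 was seen for 8 members, against 16% of all genes, and below -1 for 0, against 12.2%. In the light pool the median was 0.94, against -0.07 over all genes, with 21 members above 1, against 16.4% of all genes, and 0 below -1, against 22%. S209A lay outside the chow range for 27 of 47 members in heavy (57.4%), against 39.6% of all genes, and for 34 in light (72.3%), against 58%. The counts above 1 and outside the range hold Psma3, Psma5 and Psme2, and in light also Psmg2. These members passed the count filter only or mainly through the libraries titled fed, S209A among them, so they are no separate evidence. Against chow 3 alone the members' median was 0 in heavy and 0.45 in light, with 3 and 5 members above 1, against 11.4% and 13.3% of all genes, and 0 below -1 in each, against 13% and 19.2%. S209A light also lay outside the chow light libraries in its hepatocyte marker sum, at 10006 CPM against 3636 to 7545 CPM in chow, and in its untranslated RNA marker sum, at 1099 CPM against 1734 to 7352 CPM. Their part in the members' levels was not tested.

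In the heavy pool the widest differences among members outside the chow range with a mean of at least 20 counts were those of Psma3, Psma5, Psme1 and Psma1. Psma3 and Psma5, here and in light, passed the count filter only or mainly through the libraries titled fed, so their place is no separate evidence. Psmd11 differed by 2.39 from the chow mean but lay within the chow range, at 16.4 CPM in S209A against 2.98, 0.290 and 17.1 CPM in chow 1, 2 and 3. Psma5, an alpha ring subunit, had 5.45 CPM in S209A and 0.497, 0.580 and 4.67 CPM in chow 1, 2 and 3, a log2 difference of 1.95 from the chow mean and 0.21 from chow 3. Psma1 had 8.23 CPM in S209A and 2.48, 3.91 and 5.18 CPM in chow (1.10, and 0.64 from chow 3). In the light pool they were Psme1, Psma3, Psma5 and Psma2. Psme1 had 42.3 CPM in S209A and 1.57, 1.72 and 28.8 CPM in chow (3.17, and 0.55 from chow 3). Psma2 had 15.9 CPM in S209A and 1.39, 1.87 and 8.81 CPM in chow (2.35, and 0.84 from chow 3). S209A was highest in each, and chow 3 was the chow animal nearest to it.

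The immunoproteasome subunits were a minor share of the catalytic subunits. Psmb8, Psmb9 and Psmb10 held 23.2% of the counts of the 6 catalytic subunits in S209A heavy (exact 95% binomial interval 19.6 to 27.2). They held 21.6% (16.1 to 28.0) and 26.8% (20.3 to 34.2) in keto 1 and 2 heavy, and 24.3% (18.9 to 30.3), 11.7% (8.92 to 14.9) and 13.4% (11.2 to 15.9) in chow 1, 2 and 3 heavy. In the light pool they held 15.5% (12.7 to 18.6) in S209A, 22.4% (16.9 to 28.6) and 20.9% (13.1 to 30.7) in keto, and 26.4% (19.4 to 34.4), 11.99% (8.49 to 16.3) and 17.8% (15.2 to 20.7) in chow. The keto values lay within the chow range in light, and in heavy 1 of them lay above it, inside the interval of chow 1. Each interval comes from 1 library and covers counting error only, not the spread between animals. PCR copies are not independent molecules, so the intervals may be too narrow even for counting error.

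Among the pairs, Psmb8, the counterpart of Psmb5, had 43 counts against 44 of Psmb5 in S209A heavy, 38 against 16 and 28 against 10 in keto heavy, and 36 against 21, 44 against 82 and 57 against 100 in chow heavy. Psmb9, the counterpart of Psmb6, was rare everywhere, with 0 to 18 counts a library against 53 to 471 of Psmb6. Psmb10 had 54 counts against 86 of Psmb7 in S209A heavy, 0 against 33 and 7 against 10 in keto heavy, and 19 against 36, 11 against 62 and 52 against 170 in chow heavy. Psme2, the partner of Psme1, had 0 to 44 counts a library. Sums of 10 Kupffer cell markers, from liver macrophages, were 73.5 CPM in S209A heavy, 65.7 and 49.8 in keto heavy and 94.8, 40.3 and 85.5 in chow heavy. Among chow animals chow 2 was lowest in both this sum and the immunoproteasome share. Keto 2, with the next lowest sum, had the highest share of the heavy libraries (26.8%), and chow 3 had 13.4% at 85.5 CPM. Of 7 lymphocyte markers 1 passed the count filter, with sums of 1.45 to 6.05 CPM over all libraries. The part of these cells in the share was not tested.

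**Figure D4:**
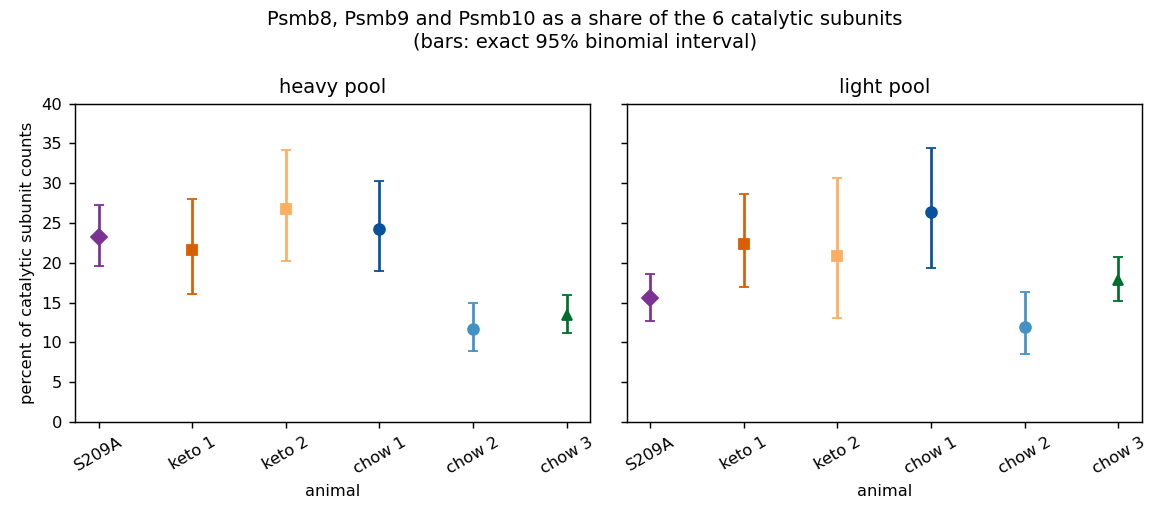
Psmb8, Psmb9 and Psmb10 as a percent of the counts of the 6 catalytic subunits, by animal in the heavy pool (left) and the light pool (right); points are single libraries and bars exact 95% binomial intervals. Chow animals ran from 11.7% to 24.3% in heavy, a range that holds S209A and keto 1.

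Other genes of the pathway were read from 5 lists of 55 genes, of which 54 were in the tables and 53 were tested. edgeR called 0 of the 53 in each of the 6 comparisons above. In chow, heavy over light was positive for 29 of 53 (median 0.11), and the 2 with the smallest p were Ubb, a polyubiquitin gene, at 1.29 ± 0.39 (edgeR adjusted p = 0.142) and Nfe2l2, the oxidative stress regulator related to Nfe2l1, at 1.47 ± 0.46 (edgeR adjusted p = 0.165). Nfe2l2 had 29.0, 27.8 and 12.3 CPM in chow heavy against 8.52, 4.60 and 11.5 CPM in chow light. As with Psmd4, the pools were far apart in chow 1 and 2 and close in chow 3. The COP9 signalosome, whose subunits are related to the lid, had 2 of 9 positive (median -0.37). The lid had 6 of 8, and this difference was not tested. In the keto animals Rps27a, which encodes a ubiquitin fused to a ribosomal protein, stood at 3.02 ± 1.28 (edgeR adjusted p = 0.990). Its levels were low, at 2.36 and 1.16 CPM in the heavy libraries of keto 1 and 2 and 0.381 and 0 CPM in their light libraries. Over all 6 animals Rps27a stood at 1.45 ± 0.52 and Cops8 at -2.58 ± 1.17 (edgeR adjusted p = 0.998 for each). Cops8 was also low, at 0 to 1.99 CPM in heavy and 0.144 to 3.53 CPM in light. For keto minus chow, Nfe2l2 stood at -2.12 ± 0.74 and Ubb at -1.39 ± 0.59 (edgeR adjusted p of 0.478 and 0.712).

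Between the diets in the heavy pool, Nfe2l2 had 6.45 and 3.28 CPM in keto, against 29.0, 27.8 and 12.3 CPM in chow, without overlap (-2.23 ± 0.61, edgeR adjusted p = 0.476). B2m, the light chain of MHC class I, had 40.3 and 49.1 CPM in keto, against 223, 124 and 65.2 CPM in chow (-1.62 ± 0.61, edgeR adjusted p = 0.527). Of the MHC class I and interferon list 9 of 10 were negative (median -0.73), and of the ubiquitin and E1 list 5 of 5 tested (-0.76). The list of other proteasome parts, assembly and shuttle factors, which includes Adrm1, Pomp and Usp14, had 8 of 17 negative (median 0.06), and the Nfe2l1 list 4 of 12 (0.32). Nfe2l1 itself had 52.5 and 39.0 CPM in keto and 8.44, 34.4 and 19.97 CPM in chow, without overlap and in the other direction from the subunits. Of all genes, 14.5% were higher in keto heavy without overlap. A link between Nfe2l1 and the subunit levels was not tested. In the light pool Usp14, a deubiquitinase of the proteasome, stood at -1.83 ± 0.73 and Ufd1, a cofactor of the segregase Vcp, at -1.94 ± 0.83 (edgeR adjusted p = 0.796 for each).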

How the data were processed

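The authors deposited a table of raw read counts by Entrez ID for each library, and these counts were not changed. The tools are Trimmomatic, HISAT2 and StringTie on build mm10, per the submitters' processing notes. Per the file headers, chow 1 and 2 came from Bowtie2 and chow 3 and S209A from HISAT2, and keto names no aligner. Per the labels, libraries started from 10 ng of total RNA with ERCC spikes, and the tables held 0 ERCC IDs. The sources used here name no counting tool, strand setting or handling of multiply aligned reads, so members with pseudogene copies or overlapping genes are uncertain. Symbols and positions came from RefSeq on GRCm38.p6 (25275 of 27179 IDs matched). No column was left unused (0).

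Genes were filtered with filterByExpr (minimum 10 counts), scaled by TMM and tested with edgeR 4.0.16, two-sided, Benjamini-Hochberg adjusted over all genes at 0.05. Heavy over light was fitted over 12 libraries with the animal as block, since both pools come from 1 liver (correlation of their deviations 0.0616 to 0.463), and keto over chow within each pool over its 6 libraries. SE is the absolute log2 value over the square root of F. CPM are TMM-scaled counts computed here. Folds are named for the 4 members (2 for the other lists) with the smallest p in each comparison, and levels for catalytic and immunoproteasome subunits. S209A's 4 largest differences outside the chow range, with a mean of at least 20 counts, are named. Nfe2l1, Psma5, Psmg4 and Psmd8, and Psmd11 beside S209A, were named after their values were seen. Members and lists were chosen with earlier results of these data known. The fit was tested on simulated data. Alternatives were RLE scaling, TMM on protein-coding genes, DESeq2 1.42.0, limma-voom (limma 3.58.1), no filter, a mean of at least 50 counts, the block, the title wording as a batch and each animal left out.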

Additional observations from a re-analysis of the deposited data

Results flagged for a closer look

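Of 13 results examined, 1 stood out. Psmd4 had a log2 heavy over light of -0.25 and -0.50 in keto 1 and 2, against 1.59, 1.19 and 0.11 in chow 1, 2 and 3, so every keto animal lay on the other side of 0 from every chow animal. The test of the difference itself did not pass (-1.34 ± 0.58, edgeR adjusted p = 0.721), and chow 3 lay close to 0. Over all genes, 7.3% show such a split.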

How the results depend on the processing

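Of 333 alternative values of named members, 0 changed sign, 11 passed where the value reported had not, and 32 moved by over 1.5 times. Of 94 alternative medians over the members, 5 changed sign and 26 others moved by over 1.5 times, and 8 of 172 counts of called members changed. The sign changes were in the median over all 6 animals, which was -0.12 without chow 1, and in the keto over chow median in light, which was 0.08 with animal numbers as a replicate block, 0.05 with the title batch, 0.05 without chow 3 and 0.06 without the animals titled fed. For heavy over light in chow, the members called higher numbered 1 in DESeq2, 2 without the animals titled fed (an alternative chosen after seeing the data) and 0 to 3 when 1 animal was left out, with 3 without chow 3. For keto minus chow, 1 was called lower without the animals titled fed and 0 to 1 with 1 animal left out. For keto over chow in heavy, 1 was called lower in DESeq2 and 2 (Psma3 and Psme1) with no filter, and the members' median was -0.66 at a mean of at least 50 counts, -0.60 with the title batch, -0.62 without the animals titled fed and -0.96 to -0.57 with 1 animal left out. In light, no filter called 1 member lower, Psma3. The causes were not tested. With animal numbers paired between diets as a replicate block, the heavy median was -0.70 and 0 members were called, and keto and chow animals of 1 number did not deviate together (r of -0.0670 to 0.0463). Without the animal block the chow heavy over light median was 0.26 and 0 members were called. Depth limits the low members: keto 2 light held 1013 member counts, and Psmd10, Psmg2 and Psmb9 averaged under 6 counts a library. Psmg4 averaged 6.67 and Psmg3 11.75.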
